A study of Mus musculus with 105 samples.

Results

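The comparison is of a single day of differentiation: bulk RNA from TX1072 cells 2 days after withdrawal of 2i/Lif was set against bulk RNA from the same line 1 day after withdrawal. It was chosen by the line and the day in the sample labels and comprises 6 of the 105 samples of the series, with 3 biological replicates on each day. Of the 52016 gene rows of the count table, 18871 had enough counts to be tested. TX1072 is a female F1 hybrid mouse embryonic stem cell (mESC) line from a cross of C57BL6/J (B6) with Cast/EiJ (Cast), so 1 X chromosome is B6 and the other is Cast, and reads over strain SNPs can be assigned to an allele. All 6 libraries share the modifications of the line, which is 1 clone (A3): the B6 copy of Xist has been placed under a promoter that doxycycline can induce, and the transactivator rtTA is expressed from Rosa26. No doxycycline is listed for these samples. In the naive state the cells are held by LIF together with inhibitors of GSK3 and of MEK (2i), and for differentiation these were left out of a serum medium on fibronectin-coated plates for 1 or 2 days. Replicate 1 came from the cell population that was also used for the single-cell experiment. Libraries were made from total RNA after removal of ribosomal RNA. The 3 day 1 libraries held 34277448, 39628784 and 32931203 counts and the 3 day 2 libraries 26163281, 35435958 and 36648673 counts, of which between 19.7% and 20.3% were assigned to an allele.

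Naive mESCs resemble the preimplantation epiblast and are sustained by a network of transcription factors that depends on LIF-STAT3 signalling, active beta-catenin and low ERK activity. Once the inhibitors and LIF are removed, that network is dismantled and the cells enter a formative state similar to the early postimplantation epiblast, from which they become able to respond to lineage signals. In female cells the same window contains the upregulation of Xist, the long noncoding RNA that coats 1 X chromosome and starts X-chromosome inactivation (XCI). The comparison addresses which genes move while the cells pass through this window. Because bulk RNA was measured, fewer cells of a kind and less RNA per cell cannot be told apart in any of the values below.

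Levels are given as CPM, counts scaled to library size with TMM factors, which compare a gene between libraries but not genes with each other. One library stood apart before any gene was tested. Over 11778 genes with a mean count of at least 100, day 1 replicate 2 differed by more than 2-fold from the mean of the other replicates of its day in 219 genes, against 69 and 50 genes in day 1 replicates 1 and 3 and against 34, 53 and 19 genes in the day 2 replicates. Its X-linked genes were lower than in the other day 1 libraries by a median of -0.19 on the log2 scale, while its autosomal genes lay at 0.04. Sycp1, a component of the meiotic synaptonemal complex, shows the difference: it was at 32.6, 6.48 and 27.0 CPM at day 1 and at 30.8, 25.1 and 34.1 CPM at day 2. The summed level of the germline genes, given below, was also lowest in that library. Each of the 6 libraries was left out in turn, and where this changed the count of a list by more than 1.5 times or the sign of a median given below, the values are given without that library or as the range over all 6 omissions. The defining factors of pluripotent cells were present in every library. Pou5f1, which encodes the transcription factor OCT4, stood at 1045, 1307 and 1080.5 CPM at day 1 and 901, 983 and 890.3 CPM at day 2, and Sox2, its partner, at 208, 156 and 194 CPM at day 1 and 195, 114 and 122 CPM at day 2. Pou5f1 was not called (log2 fold change -0.31, SE 0.12, adjusted p = 0.0561) but passed when replicates were treated as blocks (-0.30). Sox2 was not called either (-0.37, SE 0.21), and its days overlapped.

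Between day 1 and day 2, 7403 genes (39.2% of those tested) passed an adjusted p of 0.05 by edgeR's quasi-likelihood test with Benjamini-Hochberg adjustment, which is the test behind every adjusted p of a gene below. Of these, 3827 rose (20.3%) and 3576 fell (18.9%). The counts of TX1072 genes in each list below are to be read beside these shares. Changes of more than 2-fold were found for 3668 genes (19.4%), with 1992 increases (10.6%) and 1676 decreases (8.88%). For 9467 genes (50.2%) the replicates of both days did not overlap. Without day 1 replicate 2 the counts were 3611 and 3480, of which 3275 and 3115 were among the calls with all libraries. Per day, the preceding step from day 0 to day 1 changed 4444 genes upwards and 4419 downwards, and the following steps changed 2607 and 2426 genes from day 2 to day 3 and 3014 and 2237 genes from day 3 to day 4. The median absolute log2 fold change was 0.48, 0.39, 0.31 and 0.32 for the successive steps. Neighbouring steps share the libraries of a day, so that these counts are not independent of each other.

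**Figure D1:**
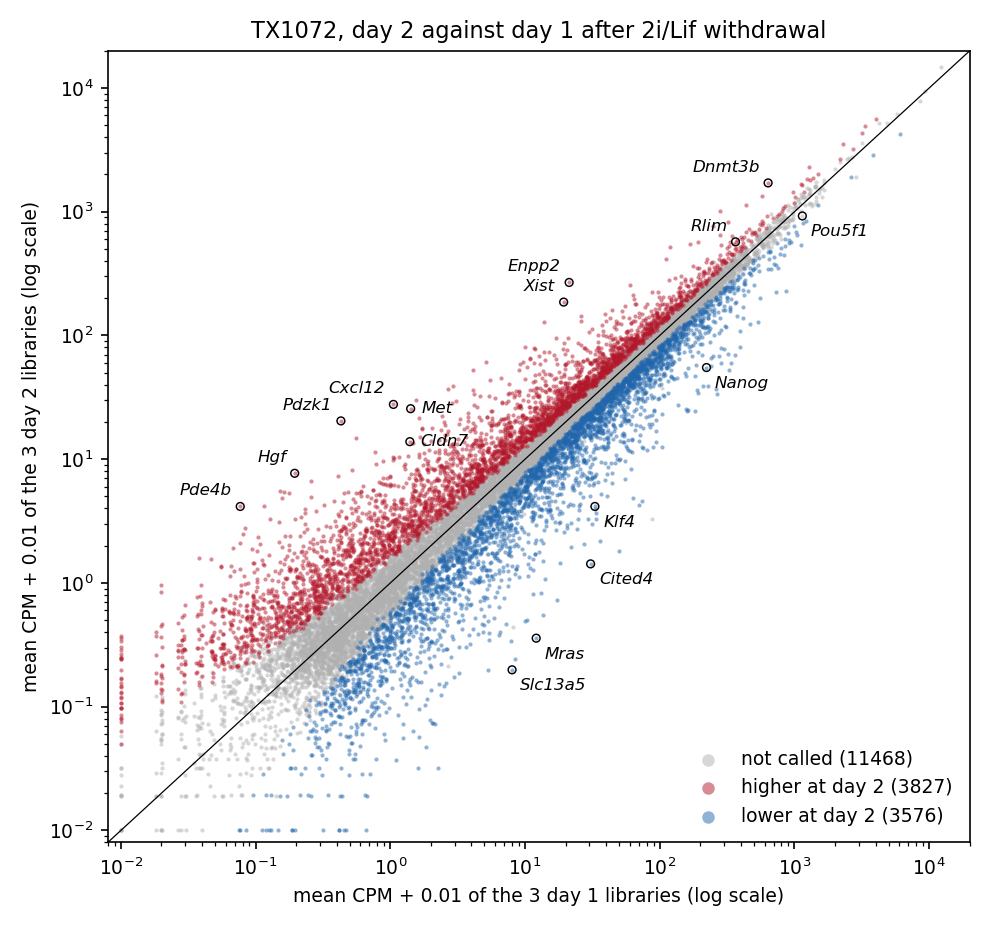
Mean CPM of the 18871 tested genes in the 3 day 1 libraries (x axis) and the 3 day 2 libraries (y axis), both with 0.01 added and on log scales. Red points are the 3827 genes called higher at day 2, blue points the 3576 called lower and grey points those not called. The line marks equal values, and called genes lie on both of its sides over the whole range of levels.

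The 10 largest increases were picked among the 5019 genes (26.6%) that passed the adjusted p, did not overlap between days and had a mean count of at least 100 on the higher day. Pde4b, a phosphodiesterase that degrades cAMP, was found at 0.146, 0.0247 and 0.0304 CPM at day 1 and 5.52, 3.20 and 3.71 CPM at day 2 (log2 fold change 5.90, SE 0.40, adjusted p = 3.02e-09). Pdzk1, a scaffold protein of epithelial membranes, rose from 0.524, 0.371 and 0.364 CPM at day 1 to 28.8, 18.6 and 13.8 CPM at day 2 (log2 fold change 5.59, SE 0.32, adjusted p = 4.22e-10). Hgf, the secreted hepatocyte growth factor, went from 0.291, 0.173 and 0.0911 CPM at day 1 to 8.26, 7.74 and 7.06 CPM at day 2 (log2 fold change 5.34, SE 0.29, adjusted p = 2.99e-10). In all of these genes the lowest day 2 library was far above the highest day 1 library. Met, the receptor tyrosine kinase that binds HGF, had the smallest adjusted p of all genes (ENSMUSG00000009376, chromosome 6 of GRCm38 from 17463800 to 17573980). It was measured at 1.43, 1.21 and 1.58 CPM at day 1 and 27.0, 25.5 and 24.3 CPM at day 2 (log2 fold change 4.19, SE 0.14, adjusted p = 5.48e-12), with replicates of a day within a narrow range. Ligand and receptor thus rose over the same day, as a pair picked after their values were seen. Cxcl12, a chemokine, followed with 1.25, 0.940 and 0.941 CPM at day 1 and 30.0, 23.4 and 29.8 CPM at day 2 (log2 fold change 4.73, SE 0.19, adjusted p = 2.93e-11). The cytoskeletal genes Pdlim3 and Tubb4a rose by 5.28 (SE 0.31) and 4.98 (SE 0.39) on the log2 scale, and Marveld3, a tight junction protein, by 4.89 (SE 0.29). The other 3 of the 10 largest increases, Gbp3, Psmb8 and Gbp2, are interferon-response genes and are described with their group below.

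Among the largest decreases, Slc13a5, a plasma membrane citrate transporter, dropped from 5.91, 9.07 and 9.02 CPM at day 1 to 0.228, 0.228 and 0.109 CPM at day 2 (log2 fold change -5.41, SE 0.31, adjusted p = 4.27e-10). Kdr, the receptor VEGFR2, was at 8.19, 8.43 and 8.84 CPM at day 1 and 0.305, 0.200 and 0.191 CPM at day 2 (log2 fold change -5.20, SE 0.29, adjusted p = 3.55e-10). Mras, a GTPase of the Ras family, was at 9.20, 14.8 and 12.3 CPM at day 1 and 0.457, 0.314 and 0.273 CPM at day 2 (log2 fold change -5.14, SE 0.30, adjusted p = 5.79e-10). All 3 were left at few counts per library, with 7 or 8 counts of Kdr in each day 2 library against 281 to 341 at day 1. Cited4, a transcriptional coactivator, had the smallest adjusted p of the decreases, at 29.2, 33.3 and 29.5 CPM at day 1 and 1.48, 1.43 and 1.336 CPM at day 2 (log2 fold change -4.44, SE 0.19, adjusted p = 4.33e-11). Its 3 replicates of a day differed by far less than the days. Pramel6, a member of the Prame-like family that is expressed in naive cells, fell by 4.54 on the log2 scale (SE 0.26), Tlr5, a receptor for bacterial flagellin, by 4.53 (SE 0.37), the kinase gene Stk33 by 4.80 (SE 0.28) and Nptx1, a secreted pentraxin, by 4.41 (SE 0.36). Dgkeos, an antisense transcript of Dgke, fell by 4.63 (SE 0.38), but the strand setting of the counting is not given in the sources used here, so its reads and those of an overlapping gene may not be separated. Sort1, a sorting receptor, and Frem2, an extracellular matrix protein, complete the genes with the 5 smallest adjusted p, with log2 fold changes of 2.65 (SE 0.11) and 3.73 (SE 0.15).

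**Figure D2:**
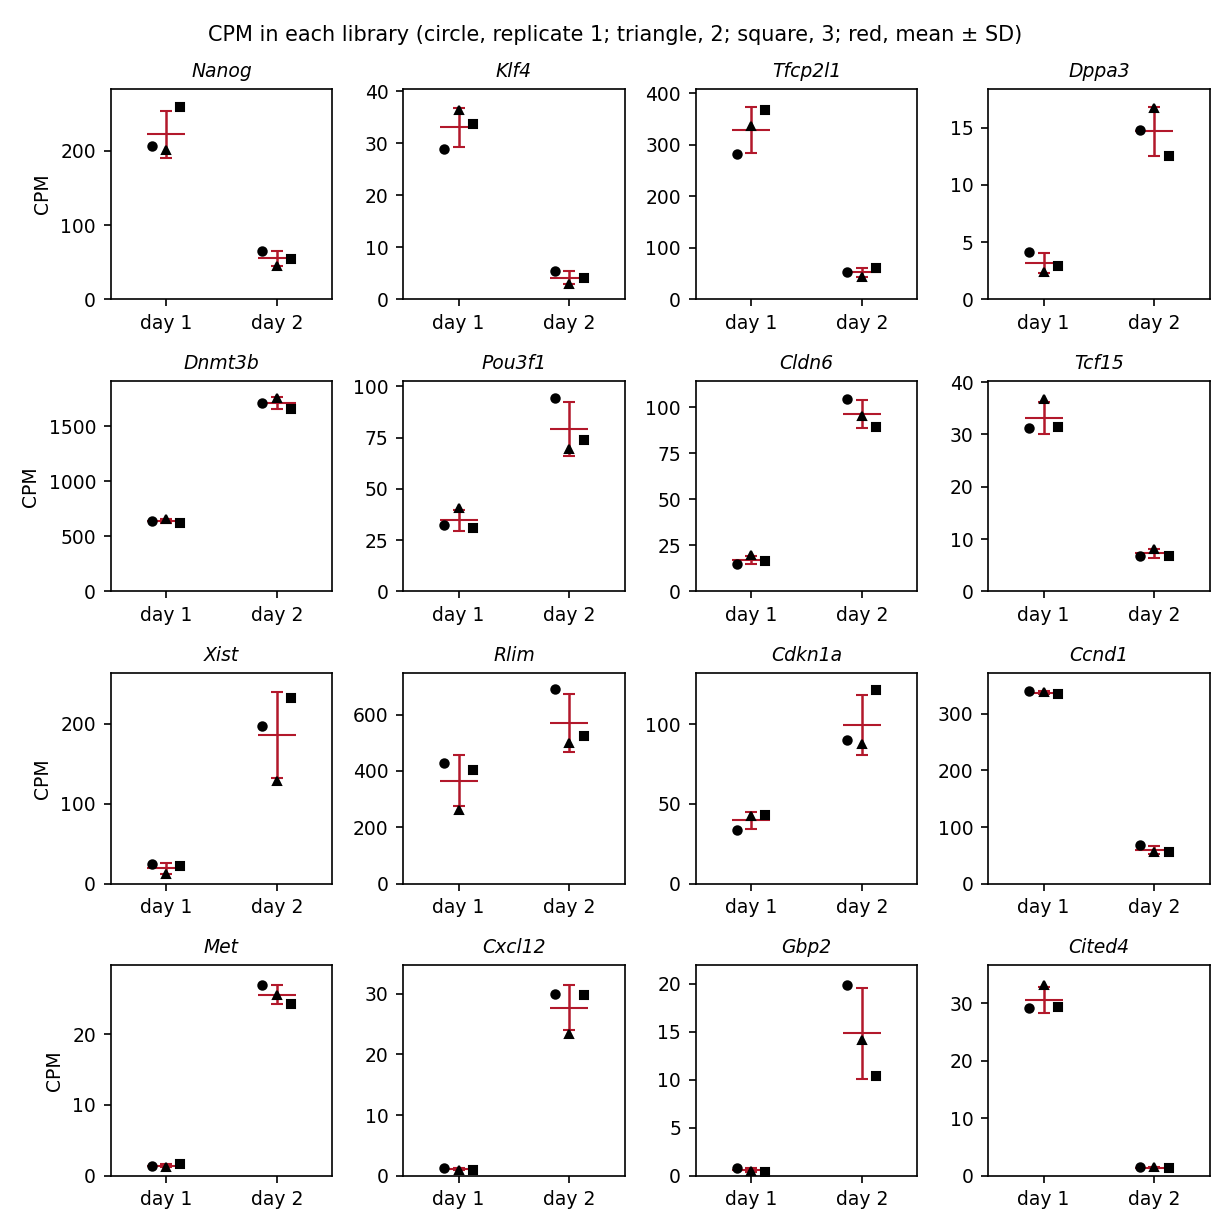
CPM of 16 genes in each library, with a panel per gene and day on the x axis. Symbols give the 3 replicates and red marks the mean and SD of each day. In all panels but that of Rlim, as in Met, where day 1 lies between 1.21 and 1.58 CPM and day 2 between 24.3 and 27.0 CPM, the days are clearly separated, while for Rlim the highest day 1 library (429.8 CPM) lies close below the lowest day 2 library (499.6 CPM).

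Naive transcription factors were mostly lower at day 2. Of 17 listed naive factors, 15 fell, 1 rose and 1 was not called, and their median log2 fold change was -2.01, beside 0.02 over all genes tested. Nanog (ENSMUSG00000012396, chromosome 6 of GRCm38 from 122707489 to 122714633), a homeobox factor at the core of the network, was found at 206, 202 and 259 CPM at day 1 and 65.6, 45.3 and 54.3 CPM at day 2 (log2 fold change -2.01, SE 0.17, adjusted p = 5.03e-08). Klf4, a Krueppel-like factor induced by STAT3, was at 28.9, 36.4 and 33.7 CPM at day 1 and 5.37, 2.91 and 4.15 CPM at day 2 (log2 fold change -3.01, SE 0.21, adjusted p = 4.66e-09). The values of both days were separated for both genes, with all day 1 libraries far above all day 2 libraries. Nr0b1, an X-linked nuclear receptor, fell by 2.97 (SE 0.15) and Tfcp2l1, a target of STAT3 and beta-catenin, by 2.65 (SE 0.14), while Esrrb, an orphan nuclear receptor that is released when GSK3 is inhibited, fell by 2.39 (SE 0.19). The smallest decreases of the list were those of Fbxo15, with -0.90 (SE 0.13), and of Klf2, with -0.93 (SE 0.18). Fgf4, a growth factor that signals through ERK, was the gene without a call, at 460.2, 378 and 424 CPM at day 1 and 364, 434 and 509.7 CPM at day 2 (log2 fold change 0.05, SE 0.13, adjusted p = 0.801). Dppa3, also known as Stella, a maternal factor of the preimplantation embryo and germline, was the exception that rose, at 4.14, 2.40 and 2.91 CPM at day 1 and 14.8, 16.7 and 12.5 CPM at day 2 (log2 fold change 2.22, SE 0.19, adjusted p = 4.99e-08).

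The LIF-STAT3 pathway went the same way as the naive factors. Of its 12 listed genes 9 fell and none rose, with a median log2 fold change of -1.27. The receptor subunit Lifr was at 72.0, 61.7 and 75.8 CPM at day 1 and 11.6, 12.4 and 17.9 CPM at day 2 (log2 fold change -2.31, SE 0.16, adjusted p = 3.02e-09), and Il6st, which encodes the shared subunit gp130, at 94.1, 91.3 and 95.7 CPM at day 1 and 53.5, 41.4 and 47.9 CPM at day 2 (log2 fold change -0.98, SE 0.12, adjusted p = 2.69e-06). Of the targets, the homeobox gene Gbx2 fell by 3.36 (SE 0.21), Bcl3 by 2.70 (SE 0.24) and the feedback inhibitor Socs3 by 1.49 (SE 0.18). Stat3 itself was not called and stood at 12.9, 14.5 and 13.3 CPM at day 1 and 13.7, 14.4 and 15.0 CPM at day 2. The receptor subunits and these targets were thus lower at day 2, whereas the 6 values of Stat3 lay close together. Klf4 and Tfcp2l1 belong to this list and to that of the naive factors. Pim1 was called (-0.35) but was not without day 1 replicate 2. Of the 12 genes 9 fell without day 2 replicate 1, and 8 fell in each of the other omissions.

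Of 12 general pluripotency factors 1 rose and 2 fell, beside 20.3% and 18.9% of all genes tested, and the median was -0.23. Without a filter on low counts 5 fell. Dppa5a and L1td1, which are both abundant in mESCs, fell by 0.56 (SE 0.13) and 0.52 (SE 0.11). Lin28a, an RNA-binding protein that blocks let-7 maturation, rose by 0.65 (SE 0.12), with 409, 379 and 408 CPM at day 1 and 589, 635 and 652 CPM at day 2. Its homologue Lin28b rose by 1.16 (SE 0.17), whereas Hmga2, a chromatin protein repressed by let-7, fell by 1.15 (SE 0.14).

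Genes of the formative epiblast mostly rose. Of 19 listed genes, 14 rose and 4 fell, with a median log2 fold change of 1.16. Dnmt3b, a de novo DNA methyltransferase, was found at 635, 654 and 622 CPM at day 1 and 1712, 1759 and 1658 CPM at day 2 (log2 fold change 1.42, SE 0.13, adjusted p = 1.01e-07), and Pou3f1, a POU factor also called OCT6, at 32.6, 40.6 and 31.2 CPM at day 1 and 94.4, 69.4 and 73.7 CPM at day 2 (log2 fold change 1.19, SE 0.17, adjusted p = 2.01e-05). Fgf5, the classical marker of the postimplantation epiblast, was at 21.5, 16.3 and 12.8 CPM at day 1 and 57.3, 40.2 and 37.3 CPM at day 2 (log2 fold change 1.41, SE 0.20, adjusted p = 1.48e-05). The replicates of both days did not overlap for any of these 3 genes. Cldn6, a tight junction protein, had the largest increase of the list (2.497, SE 0.16), followed by the zinc finger gene Sall2 (2.39, SE 0.13) and the X-linked kinase Pim2 (2.12, SE 0.12). Otx2, a factor that directs enhancer choice in the formative state, was not called, at 138, 115 and 116 CPM at day 1 and 155, 118 and 132 CPM at day 2 (log2 fold change 0.14, SE 0.16, adjusted p = 0.54). Tcf15, a bHLH factor of the first hours of exit from the naive state, went against the list and fell, at 31.2, 36.7 and 31.5 CPM at day 1 and 6.81, 8.14 and 6.79 CPM at day 2 (log2 fold change -2.19, SE 0.15, adjusted p = 3.46e-09). Phf19, a PRC2 accessory subunit, also fell (-0.98, SE 0.17). The decreases of Foxd3 (-0.74) and Grhl2 (-0.35) were lost without day 1 replicate 2 or day 2 replicate 3, so that 2 genes fell.

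Among writers and erasers of DNA methylation, 4 of 9 genes rose and 2 fell, beside 20.3% and 18.9% of all genes tested. Their median was -0.14 and ranged from -0.17 to -0.07 over the 6 omissions. Dnmt3a, the other de novo enzyme, rose with Dnmt3b, at 472, 422 and 418 CPM at day 1 and 1122, 1074 and 1192 CPM at day 2 (log2 fold change 1.37, SE 0.09, adjusted p = 4e-09). Tet2, an enzyme that oxidises methylcytosine, fell from 176, 172 and 196 CPM at day 1 to 44.9, 39.6 and 55.5 CPM at day 2 (log2 fold change -1.96, SE 0.15, adjusted p = 1.88e-08). Uhrf1, which recruits the maintenance methyltransferase, fell by 0.51 (SE 0.11), and Dnmt1 itself was not called (-0.14, SE 0.12). Of 23 Polycomb genes 3 rose and 8 fell (5 without day 1 replicate 3), with a median of -0.22. The largest decreases were of Epop, a PRC2-associated protein, with 286, 298 and 274 CPM at day 1 and 61.0, 51.1 and 66.5 CPM at day 2 (log2 fold change -2.27, SE 0.18, adjusted p = 2.3e-08), and of Kdm2b, which brings a PRC1 variant to CpG islands (-1.40, SE 0.13). The catalytic subunit Ezh2 was not called (-0.19, SE 0.11), while the chromobox gene Cbx7 rose by 0.50 (SE 0.11).

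**Figure D3:**
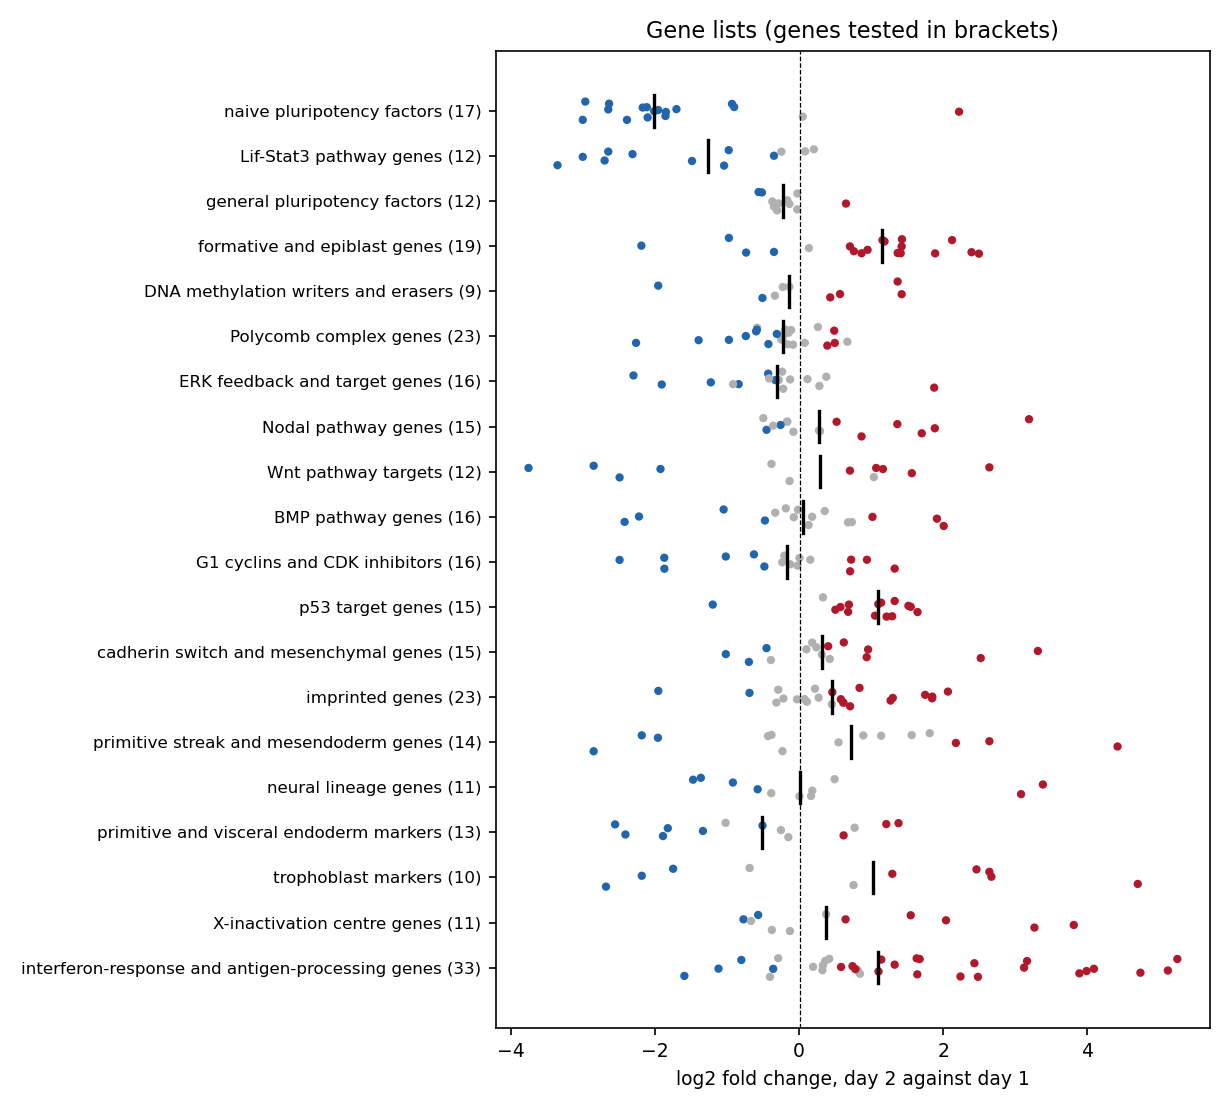
Log2 fold change of day 2 against day 1 (x axis) for the tested members of 20 gene lists (y axis, number of tested genes in brackets). Red points are genes called higher, blue points genes called lower and grey points genes not called, black bars mark list medians and the dashed line is the median of all genes at 0.02. The naive list has its median at -2.01 and the formative list at 1.16, and the last list was chosen after values had been seen.

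Signalling pathways were followed by ligands, receptors and targets. In the Nodal pathway, which patterns the epiblast through SMAD2 and SMAD3, 6 of 15 genes rose and 2 fell, with a median of 0.28 (0.04 without day 2 replicate 1). The ligand Nodal was at 92.4, 88.3 and 79.6 CPM at day 1 and 163, 153 and 159 CPM at day 2 (log2 fold change 0.87, SE 0.11, adjusted p = 8.87e-06). Lefty1, a secreted inhibitor and target of Nodal, was at 26.6, 9.82 and 5.40 CPM at day 1 and 214, 102 and 66.7 CPM at day 2 (log2 fold change 3.19, SE 0.47, adjusted p = 2.97e-05). Its replicates were widely spread on each day, in the same order of replicate numbers on both days. All day 2 libraries were above all day 1 libraries. Lefty2 had a similar spread, at 35.2, 17.2 and 18.9 CPM at day 1 and 113, 36.2 and 34.5 CPM at day 2 (log2 fold change 1.36, SE 0.35, adjusted p = 0.00482), where day 1 replicate 1 overlapped with day 2. Each replicate number of Lefty2 was nevertheless higher at day 2 than at day 1, and the test did not pair the replicates. The target Skil rose by 1.70 (SE 0.14), and the coreceptor Tdgf1 was not called (-0.17, SE 0.09). The decrease of Smad3 (-0.45, SE 0.12) was small, and that of Smad2 (-0.26, SE 0.09) was lost without day 1 replicate 2, day 2 replicate 1 or day 2 replicate 3.

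In the ERK pathway, for which MEK inhibition had been lifted, 6 of 16 feedback and target genes fell and 1 rose, with a median of -0.31. Etv4, an ETS factor induced by FGF signalling, was at 68.7, 98.1 and 84.5 CPM at day 1 and 20.2, 20.2 and 26.5 CPM at day 2 (log2 fold change -1.91, SE 0.20, adjusted p = 6.5e-07). Phlda1 and Myc fell by 2.30 (SE 0.33) and 1.23 (SE 0.26). Fosl1, an AP-1 subunit, was the member that rose, at 0.204, 0.198 and 0.304 CPM at day 1 and 0.875, 0.714 and 1.01 CPM at day 2 (log2 fold change 1.88, SE 0.32, adjusted p = 0.000141). The phosphatase genes Dusp4, Dusp5 and Dusp6 were not called, at -0.13, -0.24 and 0.38. Without day 1 replicate 2, where Spry2 and Etv5 lost their calls, 4 genes fell and 1 rose.

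Targets of the Wnt pathway, which the GSK3 inhibitor of 2i activates, moved in both directions, with 5 of 12 higher and 4 lower and a median of 0.29. The median ranged from 0.20 to 0.56 over the 6 omissions but was -0.13 over the 9 genes that were tested when only the 6 libraries were fitted. Notum, a secreted Wnt inhibitor, fell from 26.1, 30.3 and 25.5 CPM at day 1 to 3.08, 1.51 and 1.58 CPM at day 2 (log2 fold change -3.76, SE 0.24, adjusted p = 1.88e-09), and Axin2, a negative regulator that is induced by beta-catenin, from 26.8, 33.2 and 29.3 CPM at day 1 to 8.72, 6.68 and 8.13 CPM at day 2 (log2 fold change -1.93, SE 0.16, adjusted p = 2.57e-08). Cdx1, a homeobox gene, fell by 2.85 (SE 0.45) and Ccnd1 by 2.49 (SE 0.13). In contrast Tcf7, a transcription factor of the pathway, rose by 1.16 (SE 0.15), and Cdx2, at under 1 CPM in all libraries, by 2.64 (SE 0.62). Among ligands of the primitive streak, Wnt3 was at 0.146, 0.148 and 0.121 CPM at day 1 and 3.35, 2.77 and 3.11 CPM at day 2 (log2 fold change 4.42, SE 0.34, adjusted p = 1.42e-08). It had the largest change of the 14 tested streak genes, of which 3 rose and 3 fell, beside 20.3% and 18.9% of all genes tested. Cdx1 and Cdx2 belong to the lists of Wnt targets and of the streak alike. Brachyury (T), the defining gene of the streak, was below 1 CPM in all libraries, at 0.350, 0.223 and 0.334 CPM at day 1 and 0.799, 0.400 and 0.518 CPM at day 2 (log2 fold change 0.89, SE 0.57, adjusted p = 0.235). Eomes, a T-box factor that is shared with trophoblast, fell from 32.2, 34.7 and 31.0 CPM at day 1 to 7.73, 6.48 and 7.31 CPM at day 2 (log2 fold change -2.19, SE 0.21, adjusted p = 2.22e-07). Of 16 BMP pathway genes 3 rose and 4 fell (18.9% of all genes fell and 20.3% rose), with a median of 0.06 that was -0.01 without day 1 replicate 1, and with only the 6 libraries 6 rose and 3 fell. The ligand Bmp4 fell (-2.42, SE 0.21) and Bmp7 rose (1.91, SE 0.24), the inhibitory SMAD gene Smad6 fell (-2.22, SE 0.20) and the antagonist Chrd rose (2.01, SE 0.39), while of the targets Id2 fell (-1.049, SE 0.15) and Id3 rose (1.02, SE 0.28), a call that was lost without day 1 replicate 3.

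Among cell cycle regulators, the D-type cyclins, which drive G1 with CDK4 and CDK6, all fell. Ccnd1 was at 339.8, 338 and 336 CPM at day 1 and 68.4, 56.0 and 55.5 CPM at day 2 (log2 fold change -2.49, SE 0.13, adjusted p = 1.8e-10), and Ccnd3 and Ccnd2 fell by 1.87 (SE 0.14) and 1.87 (SE 0.25). Of the inhibitors, Cdkn1a, which encodes p21, was at 33.6, 42.2 and 43.4 CPM at day 1 and 90.0, 87.4 and 121 CPM at day 2 (log2 fold change 1.33, SE 0.19, adjusted p = 1.81e-05), and Cdkn1b, which encodes p27, rose by 0.72 (SE 0.16). Over the list of 16 genes 4 rose and 6 fell, with a median of -0.16 that turned to 0.03 without day 1 replicate 2. Of 15 listed targets of p53, 13 rose and 1 fell, with a median of 1.10. Mdm2, the ubiquitin ligase that degrades p53, was at 179, 165 and 187 CPM at day 1 and 291, 401 and 411 CPM at day 2 (log2 fold change 1.054, SE 0.12, adjusted p = 2e-06), and Ccng1, cyclin G1, at 303, 217 and 316 CPM at day 1 and 567, 675 and 699 CPM at day 2 (log2 fold change 1.21, SE 0.14, adjusted p = 1.71e-06). Trp53inp1 had the largest change of the list, at 302, 141 and 298 CPM at day 1 and 775, 672 and 869 CPM at day 2 (log2 fold change 1.64, SE 0.25, adjusted p = 3.49e-05). Day 1 replicate 2 was the lowest library for Ccng1 and Trp53inp1, and without it 12 of the 15 genes rose. Sesn1 fell (-1.20, SE 0.11), and Eda2r, an X-linked death receptor, was not called (0.33, SE 0.19) but passed with replicates as blocks (0.36).

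In the list of the cadherin switch, 6 of 15 genes rose and 3 fell, beside 20.3% and 18.9% of all genes tested. The epithelial cadherin gene Cdh1 stood at 307, 376 and 351 CPM at day 1 and 476, 405 and 487 CPM at day 2 (log2 fold change 0.40, SE 0.13, adjusted p = 0.0204) and rose, a call that was lost without day 1 replicate 1 or 3 and without day 2 replicate 1 or 3. Cldn7, a claudin, was at 1.31, 1.36 and 1.49 CPM at day 1 and 15.6, 13.4 and 12.6 CPM at day 2 (log2 fold change 3.32, SE 0.16, adjusted p = 1.44e-10), and Ocln, occludin, rose by 0.96 (SE 0.12). Esrp1, a splicing regulator of epithelial isoforms, rose by 0.94 (SE 0.11) and Epcam by 0.62 (SE 0.10). Of the regulators of mesenchymal transition, Zeb2 rose (2.52, SE 0.29) and Zeb1 fell (-1.02, SE 0.13), and the mesenchymal cadherin Cdh2 was not called (-0.39, SE 0.26). The decreases of Vim (-0.45) and Fn1 (-0.70) were lost without day 1 replicate 2, where 1 gene of the list fell and 7 rose, and each was also lost without 2 other libraries. Among 17 smooth muscle and actin-regulated genes, 2 rose and 7 fell with a median of -0.41, including the targets of YAP and SRF Ccn2 (-1.75, SE 0.21) and Thbs1 (-1.85, SE 0.25).

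Markers of other cell types that a culture could contain were examined next. Of 13 tested markers of primitive and visceral endoderm 3 rose and 6 fell, with a median of -0.51, and their summed level was 458, 595 and 517 CPM at day 1 and 426, 424 and 437 CPM at day 2. Sparc, a matrix protein that many cells make, had the highest CPM of the list, a scale that is not corrected for gene length. The defining factors Gata4, Gata6, Sox7 and Sox17 lay between 0.114 and 1.26 CPM in all libraries, and Afp, Ttr and Apoa1 did not reach the minimum for the test. Lama1, a laminin chain, fell from 31.4, 40.2 and 32.9 CPM at day 1 to 6.47, 6.31 and 6.82 CPM at day 2 (log2 fold change -2.41, SE 0.14, adjusted p = 5.33e-10), and Lamb1 rose by 1.38 (SE 0.10). Of 10 tested trophoblast markers 5 rose and 3 fell, with a median of 1.03 that was 0.43 without day 1 replicate 2 and 0.08 without day 2 replicate 3. Their summed levels were 77.2, 92.1 and 82.5 CPM at day 1 and 87.3, 72.6 and 72.5 CPM at day 2. Ascl2 had the highest CPM of the list, and Eomes, described above with the streak genes, was among the 3 markers that fell. Tfap2c, which is also active in the formative state, was at 3.64, 3.73 and 2.52 CPM at day 1 and 24.6, 21.1 and 17.7 CPM at day 2 (log2 fold change 2.67, SE 0.17, adjusted p = 1.22e-09), and Krt7 at 0.146, 0.148 and 0.0607 CPM at day 1 and 4.26, 3.00 and 2.56 CPM at day 2 (log2 fold change 4.70, SE 0.31, adjusted p = 2.24e-09). Elf5, a defining marker of the trophoblast, did not reach the minimum for the test, and Hand1 and Cdx2 were below 1 CPM. For 8 tested fibroblast markers the summed level lay between 20.2 and 30.4 CPM in all libraries, Thy1 had the highest CPM, which are not corrected for gene length, and 2 rose and 3 fell (median -0.24, from -0.75 to -0.08 over the 6 omissions). Neural markers gave 2 increases and 4 decreases among 11 genes, beside 20.3% and 18.9% of all genes tested. Without day 1 replicate 2 or 3 or day 2 replicate 1 or 2 there was 1 increase. The median was 0.01 and ranged from -0.15 to 0.04 over the 6 omissions, and the early neural factors Sox1 and Pax6 were not called. Sox1 was at 1.86, 3.09 and 2.25 CPM at day 1 and 2.74, 1.94 and 2.59 CPM at day 2. Pax6 was at 4.22, 4.23 and 3.22 CPM at day 1 and 3.08, 2.68 and 3.16 CPM at day 2. The part of any of these cells in the other results was not tested.

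Genes of the 2-cell embryo, which a small share of mESCs is known to express, had few counts on both days. Of 8 tested genes 6 rose and none fell, but none of the 8 met the minimum count when only the 6 libraries were fitted, so that these tests rest on a minimum met with the other days. In the 3 day 1 libraries together Zscan4c had no count, and in the day 2 libraries it had 10, 12 and 4 counts, which is at least 9.42-fold higher when day 1 is set to 3 counts over the 3 libraries. Zscan4f was at least 8.34-fold and Tcstv1 at least 8.70-fold higher by the same limit. The summed level of the list was 0.291, 0.0495 and 0.0911 CPM at day 1 and 1.64, 1.88 and 1.36 CPM at day 2, so it stayed low on both days. Its median log2 fold change was 4.02, or 3.03 with the genes without counts at day 1 set to their limits. Tcstv3, with 3, 1 and 2 counts at day 2, was called but lost its call without day 1 replicate 2, and Zfp352 was not called. These genes have near-identical copies, among which counts may be divided.

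Germline genes gave 6 increases and 3 decreases among 16 tested, beside 20.3% and 18.9% of all genes tested. Their median was 0.45. Dazl, an RNA-binding protein of germ cells, fell from 94.8, 40.9 and 79.0 CPM at day 1 to 21.5, 15.2 and 19.1 CPM at day 2 (log2 fold change -1.94, SE 0.26, adjusted p = 9.51e-06), and Taf7l, an X-linked subunit of the general transcription machinery of germ cells, rose to 16.9, 22.2 and 16.4 CPM at day 2 from 5.74, 3.16 and 3.89 CPM at day 1 (log2 fold change 2.12, SE 0.22, adjusted p = 5.22e-07). The summed level of the list was 422, 195 and 358 CPM at day 1 and 228, 216 and 238 CPM at day 2. The low value is that of day 1 replicate 2, and without this library 3 genes rose and 4 fell, with a median of 0.28. Without day 2 replicate 2, 3 rose and 3 fell. On the X chromosome, the 7 tested Mage-a genes, a family picked after values were seen, all fell, with a median of -3.22. Magea8 had the largest decrease of the X-linked genes with sufficient counts, at 6.85, 6.03 and 6.22 CPM at day 1 and 0.266, 0.400 and 0.436 CPM at day 2 (log2 fold change -4.07, SE 0.29, adjusted p = 5.69e-09). Reads of the Mage-a copies may be divided among them.

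Imprinted genes, which are expressed from 1 parental allele in somatic cells, gave more increases than decreases: 11 of 23 rose and 2 fell, and the median was 0.46. Among the increases were the noncoding RNAs of the Dlk1-Dio3 domain on chromosome 12. Meg3 was at 58.7, 58.8 and 64.1 CPM at day 1 and 290.1, 192 and 279 CPM at day 2 (log2 fold change 2.07, SE 0.20, adjusted p = 2.26e-07) and Rian at 311, 243 and 290.2 CPM at day 1 and 1060.2, 1001 and 978 CPM at day 2 (log2 fold change 1.85, SE 0.14, adjusted p = 1.62e-08), and Mirg rose by 1.75 (SE 0.14). H19, the noncoding RNA beside Igf2, rose from 29.2, 33.5 and 30.8 CPM at day 1 to 131, 115 and 91.2 CPM at day 2 (log2 fold change 1.85, SE 0.18, adjusted p = 2.35e-07), whereas Igf2 was not called (-0.29, SE 0.27). Plagl1 and Peg10 fell by 1.96 (SE 0.25) and 0.69 (SE 0.20). Dlk1, at 0.61, was not called, but passed with replicates as blocks (0.64), with which 14 genes of the list rose.

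Rows of the table that stand for miRNA genes count reads of the hairpin and its primary transcript, not of the mature miRNA. Of 167 such rows 62 rose (37.1%) and 4 fell (2.40%), with a median log2 fold change of 0.90, while 23.3% of the 14911 protein-coding genes rose and 20.6% fell. Between the start of Meg3 and the end of Mirg on chromosome 12 lie 36 of these rows, of which 30 rose. These are 30 of the 62 increases. Such neighbours are not independent of each other, so the share of the class does not count separate transcripts. Without day 1 replicate 2, 44 of 167 rose and 2 fell. A pair of clusters outside that domain rose as well. All 5 rows of the miR-302/miR-367 cluster rose (4 or 5 over the 6 omissions), with a median of 2.79. All 6 rows of the X-linked miR-106a/miR-363 cluster rose (5 or 6 over the omissions), with a median of 2.31. In the miR-290/miR-295 cluster, which is the main cluster of naive mESCs, 1 of 7 rows rose and none fell (3 rose with replicates as blocks, and between 0 and 2 over the 6 omissions), with a median of 0.35. The clusters were picked after their values were seen, and the rows of a cluster are close neighbours that are not independent of each other. Mir302d was at 0.262, 0.173 and 0.243 CPM at day 1 and 2.06, 1.63 and 1.09 CPM at day 2 (log2 fold change 2.79, SE 0.44, adjusted p = 6.36e-05), and Mir363 at 1.28, 0.470 and 0.547 CPM at day 1 and 5.10, 4.03 and 3.33 CPM at day 2 (log2 fold change 2.44, SE 0.32, adjusted p = 7.81e-06). The summed level of the miR-290/miR-295 cluster was 76.8, 60.5 and 53.6 CPM at day 1 and 82.3, 98.0 and 72.3 CPM at day 2. That of miR-302/miR-367 was 2.30, 0.816 and 0.911 CPM at day 1 and 9.29, 9.08 and 6.11 CPM at day 2. The mature sequences are shown because seeds are shared between these clusters. They are from RefSeq (GRCm38.p6), 5′ to 3′, with the seed (bases 2 to 8) in capitals.
miR-302b-3p: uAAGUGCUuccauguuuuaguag
miR-302d-3p: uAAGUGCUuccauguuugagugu
miR-294-3p: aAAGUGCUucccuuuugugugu
miR-295-3p: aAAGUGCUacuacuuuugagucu
miR-106a-5p: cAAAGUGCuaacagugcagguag
miR-20b-5p: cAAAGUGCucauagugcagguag
miR-367-3p: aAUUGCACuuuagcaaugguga
miR-363-3p: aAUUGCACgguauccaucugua
miR-92a-3p: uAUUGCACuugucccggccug
The seed AAGUGCU of miR-302b-3p and miR-302d-3p is also that of miR-294-3p and miR-295-3p, AAAGUGC is common to miR-106a-5p and miR-20b-5p, and AUUGCAC is shared by miR-367-3p of chromosome 3 and by miR-363-3p and miR-92a-3p of the X chromosome.

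A group of interferon-response and antigen-processing genes was noticed among the largest increases and its list was therefore chosen after values had been seen. Of 33 tested genes 20 rose and 4 fell, with a median of 1.10, and 18 of 34 rose and 4 fell without day 1 replicate 2. The summed level of the 33 genes was 657, 763 and 683 CPM at day 1 and 954, 800 and 725 CPM at day 2, so the days overlapped. Ifitm3, which had the highest CPM of the list, was not called. Gbp2 and Gbp3, interferon-induced GTPases that are neighbours on chromosome 3, were at 0.786, 0.470 and 0.395 CPM at day 1 and 19.9, 14.2 and 10.4 CPM at day 2 (log2 fold change 4.74, SE 0.30, adjusted p = 5e-09) and at 0.204, 0.0989 and 0.121 CPM at day 1 and 7.76, 5.28 and 3.49 CPM at day 2 (log2 fold change 5.25, SE 0.38, adjusted p = 2.63e-08). In both, day 2 replicate 3 was the lowest and day 2 replicate 1 the highest day 2 library, and all were far above day 1. Psmb8, a catalytic subunit of the immunoproteasome, was at 0.320, 0.0495 and 0.0911 CPM at day 1 and 7.46, 5.45 and 3.22 CPM at day 2 (log2 fold change 5.12, SE 0.46, adjusted p = 7.96e-08). Oasl2 rose by 3.89 (SE 0.35), Zbp1, a sensor of Z-form nucleic acids, by 3.99 (SE 0.51), and Ifih1, the RNA sensor MDA5, by 4.10 (SE 0.64). The peptide transporter genes Tap1 and Tap2 rose by 1.67 (SE 0.19) and 2.48 (SE 0.25) and B2m, the light chain of MHC class I, by 1.10 (SE 0.15). The heavy chain gene H2-K1 was not called (0.36, SE 0.15). The transcription factor gene Irf1 rose from 88.4, 80.2 and 63.2 CPM at day 1 to 204, 168 and 139 CPM at day 2 (log2 fold change 1.14, SE 0.15, adjusted p = 1.15e-05). The viral RNA sensor Ddx58, also called RIG-I, fell by 1.12 (SE 0.12) and Oas1a by 1.59 (SE 0.14), and Isg15 was not called (0.81, SE 0.42). No interferon is listed among the treatments.

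The promoters of these genes were searched for the letters GAAA, any pair of bases and GAAA, the core of elements bound by interferon-regulated factors, on both strands of the 300 bases from 250 before to 50 after a RefSeq start. The motif was found in 1131 of 32851 promoters (3.44%), in 9 of 16 genes that rose and had a promoter entry, in 2 of 3 that fell and in 4 of 9 that were not called, where a gene counts if any of its starts has a match. TTCNNNGAA, which reads the same on the other strand and was searched in the same way, was found in 2726 promoters (8.30%), in 4 of the 16, 2 of the 3 and 2 of the 9 genes. Psmb8 and Oasl2, which also had large increases, have no match to the first motif, nor has a further start of Gbp3. The promoters of Gbp2 and Gbp3, and of B2m, the subunit common to all MHC class I molecules, were chosen because they hold the first motif and are printed from GRCm38.p6 (RefSeq), all on the plus strand and with the motif in capitals.
Gbp2 (chr3:142620413-142620712): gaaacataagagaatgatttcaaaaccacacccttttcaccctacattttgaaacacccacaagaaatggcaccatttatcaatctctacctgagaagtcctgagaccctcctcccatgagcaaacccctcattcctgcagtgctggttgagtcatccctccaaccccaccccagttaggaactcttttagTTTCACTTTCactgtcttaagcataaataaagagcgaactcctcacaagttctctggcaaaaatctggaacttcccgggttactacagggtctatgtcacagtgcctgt
Gbp3 (chr3:142559794-142560093): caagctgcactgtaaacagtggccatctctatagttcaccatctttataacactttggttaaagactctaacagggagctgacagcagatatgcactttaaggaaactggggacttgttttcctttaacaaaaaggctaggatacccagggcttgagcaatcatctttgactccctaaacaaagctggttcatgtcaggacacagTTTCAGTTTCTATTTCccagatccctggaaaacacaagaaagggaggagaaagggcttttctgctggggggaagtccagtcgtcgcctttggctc
B2m (chr2:122147437-122147736): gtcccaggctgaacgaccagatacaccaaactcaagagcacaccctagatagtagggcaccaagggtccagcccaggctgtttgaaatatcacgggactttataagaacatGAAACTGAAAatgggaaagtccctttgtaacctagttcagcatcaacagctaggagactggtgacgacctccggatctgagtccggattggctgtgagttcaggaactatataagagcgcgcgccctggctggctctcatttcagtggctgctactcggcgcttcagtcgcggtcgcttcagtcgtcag
The match lies 59 bases before the start in Gbp2, and in B2m 139 bases before it. Gbp3 has overlapping matches at 45 and 39 bases before the start. In Gbp2 and Gbp3 the capitals read as the reverse complement of the motif.

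Metabolic and housekeeping groups were examined in the same way. Of 20 glycolysis genes 8 rose and 3 fell (5 fell with replicates as blocks), with a median of 0.06. Over the 6 omissions between 5 and 8 rose, and the median lay between -0.05 and 0.23. The subunits of lactate dehydrogenase rose, with Ldha at 1311, 1302 and 1205 CPM at day 1 and 2199.8, 2484 and 2169 CPM at day 2 (log2 fold change 0.84, SE 0.13, adjusted p = 4.07e-05) and Ldhb at 19.9, 21.8 and 20.3 CPM at day 1 and 120.2, 90.2 and 77.2 CPM at day 2 (log2 fold change 2.21, SE 0.19, adjusted p = 3.96e-08). The platelet isoform of phosphofructokinase, Pfkp, fell by 1.91 (SE 0.17). Of 22 cholesterol synthesis genes 2 rose (between 0 and 2 over the omissions) and 3 fell, with a median of -0.01 that lay between -0.18 and 0.05. Of 88 cytosolic ribosomal protein genes 13 rose and none fell, with a median of 0.19, but both values depended on single libraries. The median ranged from 0.04 to 0.28 over the omissions. There were 25 increases without day 1 replicate 2, 19 without day 2 replicate 3, 6 without day 2 replicate 1 and 3 without each of the others. Of 81 nuclear genes of the respiratory chain 11 rose and 4 fell (8 fell with replicates as blocks), with between 3 and 15 increases and between 2 and 7 decreases over the omissions. None of 8 tested mitochondrially encoded genes passed the test, with a median of 0.10 that ranged from -0.19 to 0.53. Of 59 tested histone genes 1 rose and 5 fell, or 10 with replicates as blocks. Without day 1 replicate 2, 9 rose and 3 fell and the median turned from -0.15 to 0.10, and without day 1 replicate 3, 11 fell. Their summed level in day 1 replicate 2 was 8840 CPM against 5116 and 5353 CPM in the other day 1 libraries. Heat-shock and dissociation genes gave 3 increases and 6 decreases among 15, with between 0 and 3 increases over the omissions. Of 26 tested Hox genes, all but 3 of them below 1 CPM in every library, 2 rose and 6 fell, with a median of -1.20, and between 3 and 8 fell over the omissions. Of 35 tested collagen genes 13 rose and 15 fell, or 7 and 15 of 29 with only the 6 libraries, where the median turned from 0.42 to -0.65. Of 17 genes that act in the exit from the naive state 4 rose (2 without day 1 replicate 3 or day 2 replicate 1) and 5 fell, with a median of 0.07 that was -0.03 without day 2 replicate 1. Of 6 tested Rhox homeobox genes on the X chromosome 2 rose and 2 fell.

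Xist was upregulated on this day. Xist (ENSMUSG00000086503, chromosome X of GRCm38 from 103460366 to 103483254, minus strand) was at 24.5, 11.5 and 22.01 CPM at day 1 and 198, 128 and 233 CPM at day 2 (log2 fold change 3.27, SE 0.28, adjusted p = 4.92e-08), which is 9.64-fold. All day 2 libraries were far above all day 1 libraries, and day 1 replicate 2 was the lowest. Without it the log2 fold change was 3.00. Its antisense repressor Tsix fell from 17.1, 15.5 and 17.8 CPM at day 1 to 11.95, 7.71 and 9.87 CPM at day 2 (log2 fold change -0.77, SE 0.19, adjusted p = 0.00357), a row that overlaps Xist and may contain some of its reads. Of 11 listed genes of the X-inactivation centre 5 rose and 2 fell, with a median of 0.37. With replicates as blocks 4 fell, and 1 fell without day 1 replicate 1 or without day 1 replicate 3. The noncoding RNA genes Ftx and Jpx, activators of Xist, rose, with Ftx at 10.3, 7.52 and 7.92 CPM at day 1 and 39.5, 33.0 and 33.5 CPM at day 2 (log2 fold change 2.04, SE 0.14, adjusted p = 2.66e-09) and Jpx at 0.699, 0.396 and 0.607 CPM at day 1 and 1.48, 1.94 and 1.53 CPM at day 2 (log2 fold change 1.55, SE 0.27, adjusted p = 0.000252). Rlim, a ubiquitin ligase that activates Xist by degrading the repressor REX1, was at 429.8, 262 and 404 CPM at day 1 and 689.9, 499.6 and 524 CPM at day 2 (log2 fold change 0.64, SE 0.18, adjusted p = 0.00866), and its call was lost without day 2 replicate 1 (0.46). Chic1 and Cdx4 were not called (-0.38 and -0.67) but fell with replicates as blocks (-0.37 and -0.71), and Chic1 also without day 1 replicate 2 (-0.58). Zfp42, which encodes REX1, fell from 228, 244 and 242 CPM at day 1 to 64.6, 68.8 and 64.5 CPM at day 2 (log2 fold change -1.85, SE 0.10, adjusted p = 1.8e-10). Among 14 genes that act with Xist, 3 rose and none fell (4 rose and 1 fell with replicates as blocks), but between 0 and 2 rose over the 6 omissions. Ciz1 (0.59, SE 0.17) was the gene that still rose without day 1 replicate 2, and its call was lost without day 2 replicate 1. Spen, which is required for silencing, was not called (-0.34, SE 0.16).

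X-linked genes as a class were lower at day 2. Of 747 tested X-linked genes 233 fell (31.2%) and 142 rose (19%), while of 18075 autosomal genes 3341 fell (18.5%) and 3684 rose (20.4%). The median log2 fold change was -0.16 on the X chromosome and 0.02 on the autosomes. The share of genes that fell was between 13.4% on chromosome 12 and 22.6% on chromosome 16 among autosomes. Among genes with a mean count of at least 100, 37.4% of 494 X-linked and 21.02% of 11716 autosomal genes fell. Without day 1 replicate 2, in which X-linked genes were low, 249 X-linked genes fell, 117 rose and the median was -0.24. The X:A ratio, the mean count per X-linked gene without Xist over that per autosomal gene, was 1.40, 1.26 and 1.38 at day 1 and 1.17, 1.13 and 1.18 at day 2. Its mean decreased from 1.35 ± 0.079 to 1.16 ± 0.026 (SD, n = 3), and all day 2 libraries were below all day 1 libraries (exact two-sided permutation test, p = 0.1, the smallest p that 3 against 3 allows). With the median count in place of the mean the ratios of both days overlapped, with a difference of -0.017 (exact permutation test, p = 0.8). By distance from Xist, the median log2 fold change was -0.25 for 85 genes within 5 Mb, -0.05 for 65 genes at 5 to 20 Mb, -0.35 for 212 genes at 20 to 40 Mb and -0.10 for 384 genes beyond 40 Mb, and the share that fell was 40%, 26.2%, 40.1% and 25.3%. Counting only genes that averaged 100 or more counts, the medians were -0.27 for 62, -0.31 for 33, -0.41 for 140 and -0.10 for 258 genes, so the value near 0 at 5 to 20 Mb was not seen among these genes, of which 13 of 33 fell.

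**Figure D4:**
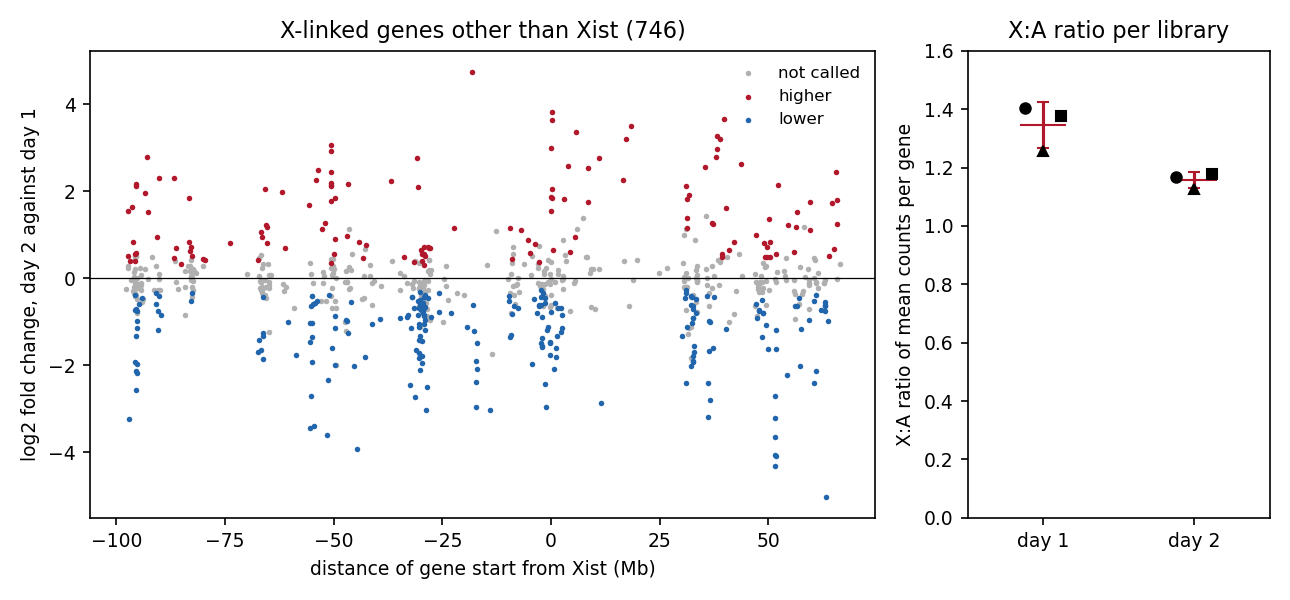
Left, log2 fold change of day 2 against day 1 (y axis) of 746 X-linked genes other than Xist against their distance from Xist in Mb (x axis), with red, blue and grey for genes called higher, lower and not called. Right, X:A ratio of mean counts per gene in each library with mean and SD in red, where day 1 lies between 1.26 and 1.40 and day 2 between 1.13 and 1.18.

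Single X-linked genes nevertheless moved strongly in both directions. Besides Xist, the largest X-linked increases, picked by the rule used for all genes above, were of Sh3bgrl, with 1.602, 0.371 and 1.12 CPM at day 1 and 14.6, 6.91 and 9.98 CPM at day 2 (log2 fold change 3.36, SE 0.41, adjusted p = 3.25e-06), of Irs4, an insulin receptor substrate (3.27, SE 0.30), of Tspan7, a tetraspanin (2.78, SE 0.18), and of Itm2a, a membrane protein (2.57, SE 0.21). Among decreases, Radx, which acts at replication forks, was at 31.9, 27.0 and 42.6 CPM at day 1 and 2.55, 3.91 and 4.47 CPM at day 2 (log2 fold change -3.20, SE 0.24, adjusted p = 1.17e-08), and 4930550L24Rik, 1700080O16Rik and Dcaf8l fell by 3.93 (SE 0.34), 3.60 (SE 0.31) and 3.04 (SE 0.32). Of 12 genes known to escape XCI 2 rose and 1 fell, beside 20.3% and 18.9% of all genes tested. Among X-linked genes these shares were 19% and 31.2%. The median of the list was 0.09 and ranged from 0.05 to 0.17 over the 6 omissions. Without day 1 replicate 2, 1 rose, and between 0 and 2 of these genes rose over the omissions. Ddx3x, an RNA helicase among them, was at 1893, 1171 and 1756 CPM at day 1 and 1609, 1488 and 1689.9 CPM at day 2, where again day 1 replicate 2 was the lowest library, and was not called (-0.01, SE 0.15).

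The B6 share of X-linked allele-specific counts was 50.2%, 50.5% and 50.2% at day 1 and 51.4%, 50.9% and 51.1% at day 2, over 138603 to 227096 counts per library. It rose by 0.813 percentage points without overlap between the days (exact permutation test, p = 0.1), while the share of autosomal counts was 51.1% and 51.2% (p = 1 by the same exact test). For Xist the B6 share was 47.4%, 52.7% and 44.4% at day 1, over 129 to 209 allele-specific counts, and 52.8%, 52.2% and 51.0% at day 2, over 1169 to 2053 counts. The days overlapped (exact permutation test, p = 0.3), and both alleles of Xist contributed at day 2 with 2343 counts on B6 and 2179 on Cast.

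The balance of the alleles was tested gene by gene as the interaction of allele with day. Of 13272 genes with sufficient allele-specific counts 1016 (7.66%) passed an adjusted p of 0.05 in edgeR's quasi-likelihood test, 523 of them towards B6 and 493 towards Cast. On the X chromosome 34 of 454 genes (7.49%) passed, 17 in each direction. For 627 of the 1016 genes the total level was called as well, beside 39.2% of the 18871 genes tested for the step. These 18871 genes passed another filter on counts, so the shares cannot be compared directly. For 368 of the 1016 genes the summed counts of the alleles moved in opposite directions, and for 319 the allele with the higher share changed. Plce1, a phospholipase C on chromosome 19 (38481109 to 38785030, GRCm38), had a B6 share of 68.1%, 71.2% and 72.4% at day 1 and of 21.4%, 26.1% and 28.4% at day 2 (log2 interaction -2.81, SE 0.12, adjusted p = 1.29e-20). Its total level rose by 0.53 (SE 0.15), a call that was lost without day 2 replicate 1. Slc35f2, a solute carrier, went the other way, with 22.2%, 21.2% and 21.5% at day 1 and 55.2%, 57.4% and 59.4% at day 2 (2.29, SE 0.12, adjusted p = 1.59e-17), and its total level was not called (-0.11, SE 0.11). Cgnl1, a junction protein, and Mt1, a metallothionein, shifted towards Cast, from 65.8% to 41.1% and from 46.7% to 31.4% B6 over the summed libraries. Rian of the Dlk1-Dio3 domain was at 27.0%, 25.5% and 25.5% B6 at day 1 and 45.5%, 44.8% and 42.2% at day 2 (1.17, SE 0.06, adjusted p = 9.02e-19), and Meg3 and Mirg of the same domain shifted in the same direction, by 1.27 (SE 0.11) and 1.07 (SE 0.09). Dnmt3a and Zfp42 also shifted towards B6, from 37.1% to 45.5% and from 8.88% to 20.3%. On the X chromosome, Ftx moved from 63.6% to 49.6% B6 (-0.82, SE 0.23, adjusted p = 0.0152), Usp9x from 49.7% to 44.3%, and Nexmif from 46.4% to 61.2%. Xist and Tsix did not pass, with adjusted p of 0.366 and 0.257.

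**Figure D5:**
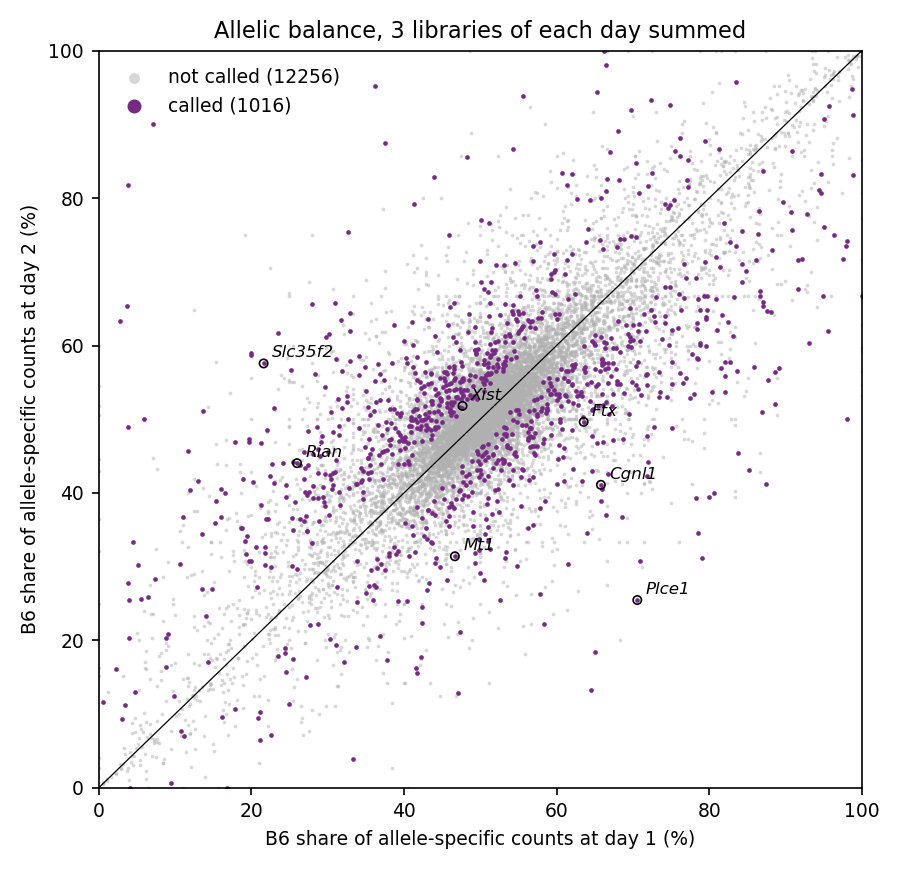
B6 share of the allele-specific counts of 13272 genes, summed over the 3 libraries of a day, at day 1 (x axis, in %) and day 2 (y axis, in %). Purple points are the 1016 genes whose balance changed and grey points the others, and named genes are circled. Plce1 lies far below the line of equal shares, at 70.6% and 25.5%, and Slc35f2 above it, at 21.6% and 57.6%.

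The same step was also sequenced in 2 derivatives of TX1072 that lack the X-inactivation centre on 1 chromosome, TXdXicB6 with the deletion on the B6 and TXdXicCast with the deletion on the Cast chromosome. Each is 1 clone with 3 replicates per day, and the libraries were made with another kit, so that values are set side by side and not tested against those of TX1072. Of 19885 genes tested in these lines, 3173 rose (16%) and 3332 fell (16.8%) in TXdXicB6, and 3497 rose (17.6%) and 3648 fell (18.3%) in TXdXicCast. Among the 18382 genes tested in all 3 lines, 3804 rose in TX1072, and 2580 of these (67.8%, and 83.8% of the calls of the line) rose in TXdXicB6 and 2856 (75.1%, and 84.1%) in TXdXicCast. Of 3549 that fell, 2595 (73.1%, and 80.5%) and 2817 (79.4%, and 79.3%) also fell in these lines. Calls in opposite directions were found for 3 genes, all of which rose in TX1072: Cdo1 (0.47), a cysteine dioxygenase, fell in both lines (-0.53 and -0.61), Crym (1.04) in TXdXicB6 (-0.74) and 1700097N02Rik (0.65) in TXdXicCast (-0.68). The naive list gave 15 decreases and 1 increase in each line, with medians of -1.996 in TXdXicB6 and -2.07 in TXdXicCast. Xist, present on only 1 chromosome, rose by 3.86 in TXdXicB6 and by 3.25 in TXdXicCast. Met rose by 4.03 and 4.02 and Pde4b by 4.79 and 4.74, and Slc13a5 fell by 4.87 and 4.30. The median log2 fold change of 712 X-linked genes was -0.05 in TXdXicB6 and -0.03 in TXdXicCast, beside -0.01 and -0.02 on the autosomes.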

How the data were processed

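Bulk RNA of TX1072 cells was compared between day 1 and day 2 of differentiation. Per the labels and the study's methods, the authors aligned reads to GRCm38 (mm10) with STAR 2.5.2b after masking strain SNPs and deposited raw counts per gene from featureCounts, for all reads and for reads assigned to the B6 and Cast alleles. The strand setting of the counting is not given in the sources used here. Total counts ranged from 26163281 to 39628784 per library. The 92 ERCC rows, with 0 counts, and 1 Xist row of the allele tables were left out. Genes were placed with GENCODE M21 (51545 genes) or RefSeq synonyms (412), and 53 were not placed.

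Counts of the 15 TX1072 libraries (days 0 to 4) were fitted with edgeR 4.0.16 in R 4.3.3 (TMM factors, filterByExpr, quasi-likelihood test, day as factor), with Benjamini-Hochberg adjustment over 18871 genes and a threshold of 0.05. CPM were computed from the counts with TMM-scaled library sizes. For allelic balance, the B6 and Cast counts of a gene had to sum to 50 or more over the 6 libraries, with 5 or more on either allele. The deletion lines were fitted apart, over 30 libraries. Values of single libraries were compared by exact two-sided permutation tests (scipy 1.17.1), which with 3 against 3 cannot go below 0.1. PCR duplicates cannot be told from separate molecules.

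On simulated counts with 200 changed genes the step recovered 62% of changes of 0.75 and 94% of changes of 1.5 on the log2 scale, with 3.11% false calls, over 17792 genes. The changed genes were drawn from those with a mean above 1 CPM, so the recovered shares do not cover genes at lower levels. Far fewer genes were changed than were called in the data. The allelic test recovered 42.5% of changes of 1 on the log2 scale over 13134 genes, with 5.56% false calls, above the 5% that the threshold allows. Its changed genes had at least 200 allele-specific counts, and the same spread was simulated for all genes. Each replicate was, per the study's reporting summary, differentiated on its own day, so that replicate numbers pair the samples. The permutation tests and the main edgeR fit did not use this pairing. Deviations from the day mean had a median correlation of 0.126 between 30 same-numbered pairs of libraries and of -0.0678 between 60 other pairs, and for day 1 with day 2 the same-numbered values were 0.0312, 0.255 and 0.265. Alternatives were DESeq2 1.42.0, its size factors, TMM factors from autosomal genes, no filter, replicates as blocks, only the 6 libraries and leaving out each replicate.

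Named genes were the 10 largest changes in each direction (mean count of at least 100, no overlap), the 5 smallest adjusted p, genes the study names and, of each of 37 lists, the strongest called and some uncalled members. Other list members were named after their values were seen, as were 6 further lists. The comparison, members and lists were chosen with earlier results of these data known. Genes with near-identical copies and overlapping genes are uncertain, as counts may be divided between them. Some genes that the rule names are not reported here.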

Additional observations from a re-analysis of the deposited data

Results flagged for a closer look

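The step from day 1 to day 2 was tested against the step from day 3 to day 4, with which it shares no library, as a contrast of both steps in the same edgeR fit. The change differed for 7007 genes (37.1%), in 3618 of them towards higher values in the earlier step (19.2%) and in 3389 towards lower values (18%). Of the 7403 genes called between day 1 and day 2, 4913 were among these, and 1547 were called with the opposite sign between day 3 and day 4. The contrast contains the earlier step itself, so its calls are not independent of the calls of that step. All values below are differences of log2 fold changes between the steps with an adjusted p of the quasi-likelihood test.

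The 5 genes with the smallest adjusted p were examined. Dll1, a ligand of Notch, had a mean of 12.6, 68.5, 22.7 and 4.16 CPM on days 1 to 4, rose by 2.44 in the earlier step and fell by 2.45 in the later one (difference 4.89, adjusted p = 4.52e-11). Enpp2, the enzyme autotaxin, had 21.2, 268, 169.9 and 38.9 CPM and a difference of 5.78. Both were thus highest at day 2. Met, with 1.41, 25.6, 40.0 and 32.5 CPM, rose in the earlier step and was not called in the later one (-0.30), with a difference of 4.49. Plekhh1, a gene with a pleckstrin homology domain, fell by 2.54 and then rose by 1.47, from 55.7 to 9.59 CPM and from 16.3 to 45.2 CPM (difference -4.01). Csf1, the macrophage colony-stimulating factor, fell by 2.26 and then rose by 3.15, with 3.64, 0.753, 3.36 and 29.99 CPM (difference -5.41). Plekhh1 and Csf1 were lowest at day 2 among the 4 days.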

How the results depend on the processing

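No called gene among the 303 checked changed direction under an alternative that tested it, and 20 of the 303 did not meet the minimum count with only the 6 libraries. However, the medians of 11 of 43 gene lists changed sign under at least 1, and the counts of 18 lists moved by more than 1.5 times when 1 library was left out, as given above. Without a filter on low counts 19 of 64 histone genes, 5 of 12 general pluripotency factors, 4 of 11 genes of the X-inactivation centre and 8 of 86 respiratory chain genes fell, 6 of 16 streak genes and 7 of 89 ribosomal protein genes rose, and the collagen median was -0.08. With only the 6 libraries the neural median was -0.37, and 8 Hox genes were tested, of which 3 fell. The median of all genes lay between -0.0244 and 0.0272. Across DESeq2, DESeq2 size factors, TMM factors from autosomal genes, no filter, replicates as blocks and only the 6 libraries, between 6980 and 8047 genes were called (7403 in the report), and without 1 replicate between 3032 and 3611 genes rose and between 3125 and 3480 fell. With replicates as blocks 4192 genes rose and 3855 fell, of which 3813 and 3565 were among the calls without the block. Beyond the genes and lists named with the block above, the block also gave calls to Gata4 (0.76), Mir290a (0.58), Rbm15 (0.29), Rhox6 (-0.46) and Usp17la (2.94), and it changed no other call of the 303 genes checked. X-linked genes that fell numbered 206 to 249 and those that rose 109 to 138 without 1 replicate. The X:A difference (-0.189) ranged from -0.234 to -0.160 without 1 replicate and was -0.0172 with median counts. The difference of the B6 share of X-linked counts ranged from 0.697 to 0.920 percentage points, was 1.19 as a median over genes and 0.0156 as a ratio to the autosomal share, and that of Xist ranged from 1.94 to 6.08 points and was 0.0740 as such a ratio. Changed allelic balance was called for 774 to 848 genes without 1 replicate and for 996 to 1054 otherwise, the difference of steps for 6303 to 6738 and for 6912 to 7694 genes, and the step in the deletion lines for 5368 to 5859 genes in TXdXicB6 and 5934 to 6327 in TXdXicCast without 1 replicate. Over 303 genes (283 with only the 6 libraries) and 12 settings, 3411 values kept their call, 112 lost it, 49 gained it and 44 moved by more than their spread. Hnrnpk and Smchd1 lost their calls under 9 settings each. The cause of these shifts was not tested. Genes with few counts on a day, such as those of the 2-cell embryo, are limited by depth.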
